A study of Homo sapiens with 2 samples.

Results

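The respiratory chain genes of THP1 cells treated or not with bort were examined as 1 group, 108 of the 10987 genes in the deposited table. They were chosen by gene symbol alone: the MT-ND, MT-CO, MT-CYB and MT-ATP genes of mitochondrial DNA, and nuclear genes whose symbols start with NDUF, UQCR, ATP5 or COX and a digit, together with SDHA to SDHD. Of the 108 genes, 13 lie on mitochondrial DNA and 95 in the nucleus. GENCODE 29 holds 119 protein-coding genes that meet the same rule. Of these, 8 were not analysed here, among them COX4I2, COX6A2, COX7A1 and NDUFA4L2, and 3 are in the table under the older symbols USMG5, C14orf2 and ATPIF1, which the rule does not take.

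The respiratory chain sits in the inner mitochondrial membrane. Complexes I and II take electrons from NADH and from succinate, complex III passes them through cytochrome c to complex IV, which reduces oxygen, and complexes I, III and IV pump protons across the membrane. ATP synthase, called complex V, uses the proton gradient to make ATP. All these complexes except complex II are built from proteins of both genomes: a few hydrophobic core subunits are encoded and translated inside the mitochondrion, and the rest are transcribed in the nucleus and imported. The mitochondrial genes are transcribed as long RNAs that are cut into single messages, mostly at the tRNAs between them. Most of these messages carry short poly-A tails.

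RNA sequencing was done on 2 libraries of the human leukaemia line THP-1, labelled as a monocytic line, 1 from cells given bort for 24 h and 1 from untreated cells. Bort (bortezomib) is a reversible inhibitor of the proteasome, and its dose for the sequenced cells is not given in the labels. THP1 is known as a line that carries the MLL-AF9 fusion, which was not looked for in these libraries. Each condition had 1 library, so no difference below has a replicate check, an error or a p-value, and a difference between the libraries is not shown to be an effect of bort. The values are FPKM, fragment counts divided by transcript length and by the size of the library. Being per length, they allow only a rough comparison of levels between genes. The genes MT-ATP8 and MT-ATP6, read from 1 message, differed 2.67-fold in the untreated library. Fewer cells with a transcript and less of it per cell cannot be told apart in bulk RNA.

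Both libraries went against the label of a monocytic line. All 14 of 14 erythroid markers were in the table, summing to 5075 FPKM in the untreated and 4440 FPKM in the bort-treated library, whereas 6 of 12 monocytic and myeloid markers were in the table, summing to 24.8 and 64.4 FPKM. The genes for CD14, CSF1R and MPO were not in it. Both marker lists were written with an earlier finding of erythroid transcripts in these libraries known. The fetal haemoglobin genes HBG1 and HBG2 held about as much in both libraries, but other markers differed. Of the 14 erythroid ones 5 were higher and 9 lower. The 4 lower by 2-fold or more were KLF1 (-3.01), HBZ (-1.88), GATA1 (-1.71) and EPOR (-1.30). None was higher by 2-fold, and the highest were HBE1 (0.74) and RHAG (0.71). Of the 6 myeloid ones 5 were higher, LYZ (1.79) and CD68 (1.61) by 2-fold or more, and CD33 (-0.26) was lower. Among the 5, ITGAM and S100A9 were under 1 FPKM in both libraries. ITGAM was at 0.23 FPKM in the untreated and 0.84 FPKM in the bort-treated library, and S100A9 at 0.10 and 0.94 FPKM. With the trend on transcript GC content removed, KLF1 was at -2.30, GATA1 at -1.27, HBZ at -1.20 and EPOR at -0.76. LYZ was then at 1.41 and CD68 at 1.90. The libraries are therefore called by their labels. The part of cell identity in the values below was not tested.

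Differences are given as log2(FPKM + 1) in the bort-treated library minus the same in the untreated library, and a gene was counted as higher or lower when it was past 2-fold on this scale. Over all genes, the share at least 2-fold higher was 8.08% and the share at least 2-fold lower 10.2%, 50.3% were higher by any amount, and the median difference was 0.0049. The split of called genes depended on the scaling: 888 were higher and 1125 lower as deposited, against 1112 and 944 with the libraries scaled to their upper quartile. Of the 108 respiratory chain genes, 15 were higher (13.9%) and 6 lower (5.56%), with a median of -0.16.

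The 2 genomes went apart. The 13 mitochondrial genes were all higher in the bort-treated library, 11 of them by 2-fold or more, with a median difference of 1.65. Of the 95 nuclear genes, 38 were higher and 57 lower, with a median of -0.20. Past 2-fold, 4 nuclear genes (4.21%) were higher and 6 (6.32%) lower, both below the shares over all genes. The medians of the 2 genomes lay 1.85 apart. Summed over genes, the mitochondrial messages held 11694 FPKM in the untreated and 32011 FPKM in the bort-treated library, 2.74 times as much, and the nuclear ones 5535 and 4408 FPKM, a ratio of 0.796. Mitochondrial messages thus made up 5.57% of all FPKM in the untreated and 14.5% in the bort-treated library. Because FPKM are shares of a library, a larger mitochondrial share lowers all other values. With the libraries scaled to the total of nuclear genes, the nuclear median was -0.14 and the mitochondrial median 1.72. The median over all genes was then 0.059, against 0.0049 as deposited.

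**Figure D1:**
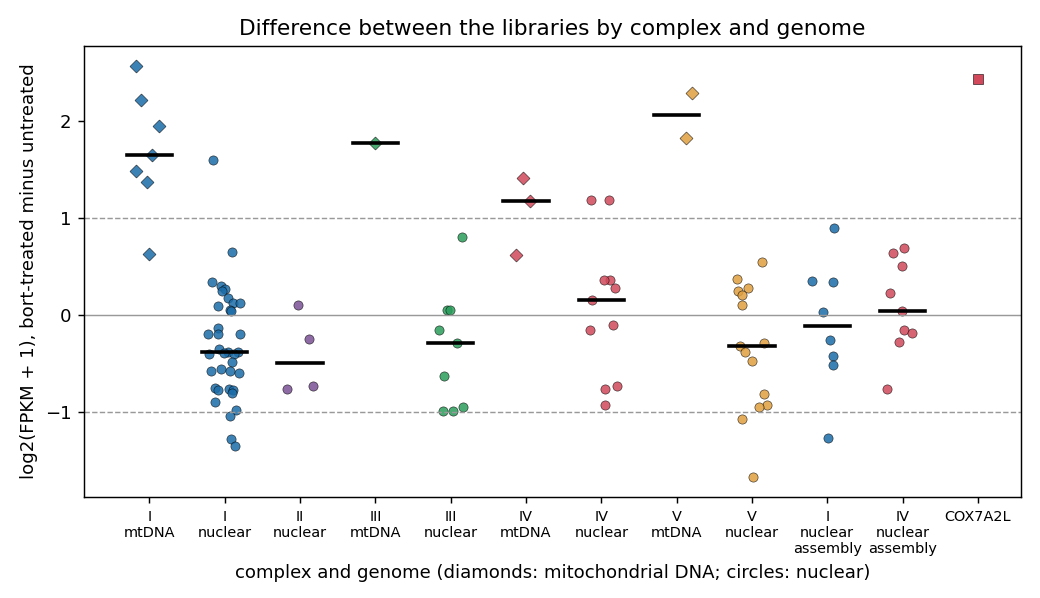
Difference in log2(FPKM + 1), bort-treated minus untreated, for each respiratory chain gene by complex and genome. Diamonds are mitochondrial genes, circles nuclear genes, the square is COX7A2L, bars are medians, and dashed lines mark 2-fold. All 13 diamonds lie above 0, while the nuclear circles spread to both sides with medians between -0.50 and 0.15.

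Taking the mitochondrial genes first, the messages that share bases are shown because they are read as pairs from 1 transcript, which bears on how their reads were divided. MT-ATP6 also overlaps the start of MT-CO3, which is cut into a message of its own and is not shown. The sequences are those of the GENCODE 29 transcripts on the GRCh38 mitochondrial sequence, and the capitals mark the start codon of the downstream gene inside the end of the upstream one. The overlap of MT-ATP8 with MT-ATP6 is 46 bases and that of MT-ND4L with MT-ND4 is 7 bases.
MT-ATP8 and MT-ATP6: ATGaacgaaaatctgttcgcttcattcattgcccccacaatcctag
MT-ND4L and MT-ND4: ATGctaa

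A further set is shown because it ties the mitochondrial messages to the poly-A selection of the libraries. Of the 13 annotated transcripts, 6 stop short of a whole stop codon, which is completed only when the message gains its poly-A tail. The capitals mark the bases left after the last whole codon.
MT-ND1: agcattccccctcaaaccTA
MT-ND2: tttatactaataatcttaT
MT-CO3: atctattgatgagggtctT
MT-ND3: ggattagactgaaccgaaT
MT-ND4: attaccgggttttcctctT
MT-CYB: aaaatactcaaatgggccT
The study's methods describe isolation of poly-A RNA with oligo-dT beads, while the labels name a TruSeq RNA kit. Tail length and RNA quality were not measured here, and their part in the mitochondrial values was not tested.

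Among the 7 mitochondrial subunits of complex I, which form its proton-pumping membrane arm, the differences ran from 0.63 to 2.56. MT-ND5 was at 131.0 FPKM in the untreated and 779.4 FPKM in the bort-treated library, a difference of 2.56. It was the widest of the 108 genes with a pseudocount of 1 FPKM, whereas with 0.5, 0.1 or none that of COX7A2L was wider. MT-ND3 was at 322.8 and 1503 FPKM (2.22), and MT-ND4 at 926.6 and 3590 FPKM (1.95). These 3 genes lie in the stretch from MT-ND3 to MT-ND5, although MT-ND4L between them, at 827.1 and 2133 FPKM, differed by 1.37. Near the other end of the gene order, MT-ND2 was at 716.5 and 2251 FPKM (1.65) and MT-ND1 at 983.9 and 2749 FPKM (1.48). MT-ND6, the 1 gene of the 13 on the opposite strand, was at 247.3 and 382.4 FPKM, a difference of 0.63 that stayed within 2-fold. The study's methods name a stranded KAPA kit and the labels a TruSeq kit, and the sources used here do not say whether strand was used when fragments were assigned.

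Complex III has 1 mitochondrial subunit, cytochrome b, which holds the sites where ubiquinol is oxidised and reduced. Its gene, MT-CYB, was at 424.4 and 1454 FPKM (1.77). The 3 mitochondrial subunits of complex IV form its catalytic core and had the highest median level of any complex in both libraries. MT-CO3 was at 1944 and 5189 FPKM (1.42) and MT-CO1, which carries the haem groups and the copper where oxygen is reduced, at 1746 and 3937 FPKM (1.17). MT-CO2, the subunit that receives electrons from cytochrome c, was at 2497 and 3839 FPKM, a difference of 0.62. It was the most abundant gene of the whole table in the untreated library and ranked 4 in the bort-treated one.

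For complex V, MT-ATP6, which forms part of the proton channel, was at 253.0 and 901.3 FPKM (1.83). MT-ATP8, a small subunit of the membrane sector, was at 675.4 and 3304 FPKM (2.29). The 2 genes are read from 1 message, yet the ratio of MT-ATP8 to MT-ATP6 was 2.67 in the untreated and 3.67 in the bort-treated library, a shift of 0.46 on the log2 scale. For MT-ND4L and MT-ND4, also carried on 1 message, the ratio went the other way, from 0.893 to 0.594, a shift of -0.59. How fragments from the overlaps were divided is not given in the sources used here, and its part in these shifts was not tested. The 2 pairs were chosen for their shared message after the values were known.

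**Figure D2:**
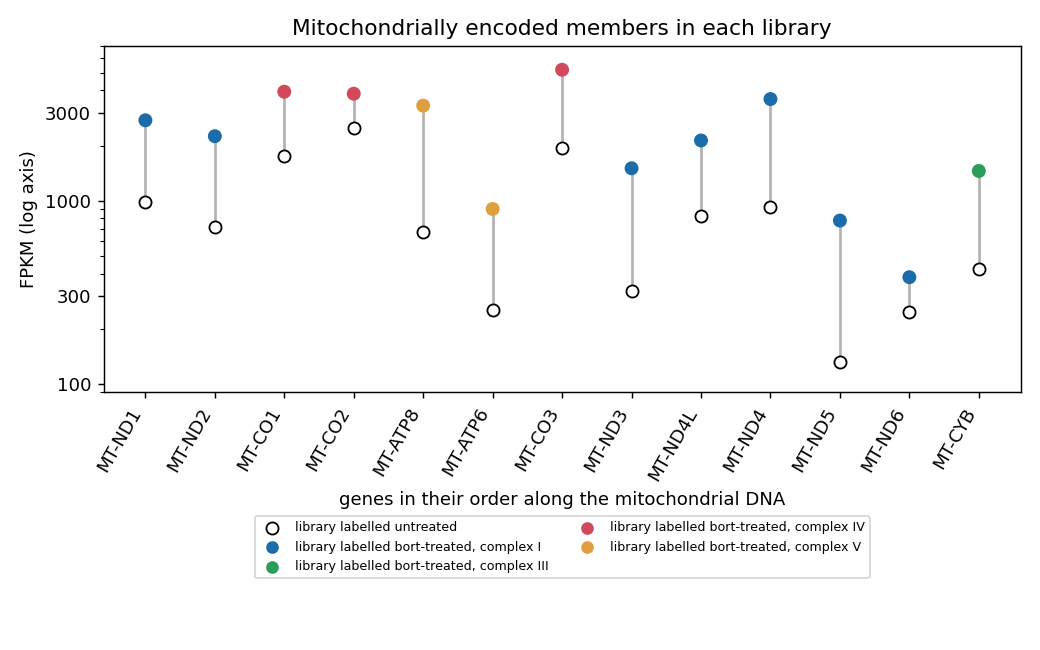
FPKM of the 13 mitochondrial genes on a log axis, in their order along mitochondrial DNA. Open circles are the untreated and filled circles the bort-treated library, coloured by complex. Every filled circle lies above its open circle, and the shortest lines are those of MT-CO2 and MT-ND6.

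Levels of the mitochondrial genes were less uneven in the bort-treated library. The highest stood 19.1 times above the lowest in the untreated and 13.6 times in the bort-treated library. Across the 13 genes, the difference was larger where the untreated level was lower (Pearson's r = -0.51, Spearman's rho = -0.55, n = 13 genes of the same 2 libraries), a description in which the untreated level enters both measures. Transcript length showed a weaker relation (r = 0.20). Of the 20 most abundant genes of the table, 8 were mitochondrial in the untreated and 11 in the bort-treated library.

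The complexes could be ranked by how far their mitochondrial messages differed, with few genes in each. Summed FPKM were 4.53 times as high for complex V (2 genes), 3.43 times for complex III (1 gene), 3.22 times for complex I (7 genes) and 2.10 times for complex IV (3 genes). The gap in level between the genomes widened in every complex that has both. In complex I the median mitochondrial subunit was 28.6 times the median nuclear one in the untreated and 82.2 times in the bort-treated library. The same ratio was 7.86 and 32.8 for complex III, and 9.31 and 48.3 for complex V. Complex IV had the smallest relative widening, from 33.6 to 47.0. In the bort-treated library all 7 mitochondrial subunits of complex I were above each of its 37 nuclear subunits, against 4 of 7 in the untreated library.

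Nuclear subunits of complex I were mostly lower in the bort-treated library, 25 of 37, with 12 higher and a median of -0.39. Past 2-fold were 1 higher and 3 lower. NDUFB4, a supernumerary subunit of the membrane arm, was at 8.39 FPKM in the untreated and 27.4 FPKM in the bort-treated library (1.60). NDUFB7, another membrane arm subunit and one of the abundant ones, was at 279.7 and 108.8 FPKM (-1.35). Subunits of the same arm thus lay at both ends of the 37.

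Some nuclear subunits belong to the catalytic core of complex I, inherited from its bacterial ancestor. NDUFV1, which binds the FMN that accepts electrons from NADH, was at 66.0 and 26.6 FPKM (-1.28). NDUFS7, which holds the last iron-sulphur cluster before ubiquinone, was at 19.0 and 8.67 FPKM (-1.05), which came inside 2-fold with the GC trend removed (-0.39) and under 3 of the other scalings. These are the other nuclear subunits of the complex lower by 2-fold, beside NDUFB7. NDUFS3 lay just inside the threshold (-0.99) and shares exon bases with PTPMT1 on the same strand. NDUFV2, which holds an iron-sulphur cluster next to NDUFV1, was higher by 0.09, which became -0.07 after correction for GC content.

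Complex II, succinate dehydrogenase, is encoded wholly in the nucleus and also belongs to the citric acid cycle. SDHA, the flavoprotein that oxidises succinate, was at 32.1 and 18.8 FPKM (-0.74). SDHB, the iron-sulphur subunit, was at 68.0 and 39.4 FPKM (-0.77). The membrane anchors differed less: SDHD was at 39.5 and 32.9 FPKM (-0.26), and SDHC at 4.76 and 5.18 FPKM (0.10, or -0.12 with the GC trend removed). The median of the 4 genes was -0.50, and none was past 2-fold.

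In complex III, 6 of 9 nuclear subunits were lower, with a median of -0.30, and none was past 2-fold. UQCRFS1, the Rieske iron-sulphur protein, lay just inside the threshold at 59.1 and 29.1 FPKM (-0.998), and was past it with the pseudocount at 0.1 or 0.5 FPKM. UQCR11 was nearly as low (-0.99). UQCRB, which contributes to ubiquinone binding, was the highest of the 9, at 12.2 and 22.0 FPKM (0.80). UQCRH, the hinge protein that helps cytochrome c dock, was at 395.4 and 353.6 FPKM (-0.16). Its intronless copy UQCRHL was at 5.49 and 4.29 FPKM (-0.30), a value that is uncertain because reads of UQCRH can match it.

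In complex IV, 6 of the 11 nuclear subunits were higher, with a median of 0.15, although their summed FPKM were lower, 1214 and 1021, and the median was -0.062 with the GC trend removed. NDUFA4, first described as part of complex I and now known as a subunit of complex IV, was at 20.4 and 47.7 FPKM (1.18). COX7C was at 37.0 and 85.1 FPKM (1.18). Both are small single-span subunits. COX8A, likewise small and single-span, was at 390.6 and 203.7 FPKM (-0.94). The larger COX4I1, a regulatory subunit that binds adenine nucleotides, was lower as well, at 57.8 and 34.3 FPKM (-0.73), while COX5A, its neighbour on the matrix side, was at 65.0 and 83.7 FPKM (0.36). The gene named beside NDUFA4 and COX7C by its fold, COX7A2L, is counted apart because its product, also called SCAF1, joins complexes III and IV into supercomplexes. It was at 3.34 FPKM in the untreated and 22.5 FPKM in the bort-treated library, a difference of 2.44, the widest of the 95 nuclear genes. Its paralogue COX7A2, the subunit found in complex IV itself, was at 43.6 and 48.6 FPKM (0.15, or -0.12 with the GC trend removed), so the sum of the 2 genes differed by 0.59 on the log2 scale.

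Among nuclear subunits of complex V, 9 of 15 were lower, with a median of -0.32. ATP5D, the delta subunit of the central stalk, was at 52.8 and 15.9 FPKM (-1.67), the lowest difference of the 108 genes. The catalytic beta subunit, ATP5B, was at 224.7 and 183.0 FPKM (-0.29), and the alpha subunit, ATP5A1, at 42.2 and 23.5 FPKM (-0.82). ATP5C1, the gamma subunit that turns within them, was at 78.8 and 93.9 FPKM (0.25, or -0.04 with the GC trend removed, under which all 5 subunits of the F1 part were lower). Subunits of the F1 head and stalk thus spread from -1.67 to 0.25, wider than the gap between the medians of any 2 complexes. ATP5L, subunit g of the membrane sector, was the highest of the 15 at 34.7 and 51.1 FPKM (0.54).

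The c ring of ATP synthase is encoded by 3 nuclear genes whose mature proteins are the same. ATP5G1 was at 24.7 and 11.2 FPKM (-1.08). ATP5G2 was at 21.7 and 28.2 FPKM (0.36), and ATP5G3 at 37.0 and 28.1 FPKM (-0.38). Summed, the 3 genes were at 83.4 and 67.5 FPKM, a difference of -0.30. The family as a whole thus differed less than ATP5G1 alone.

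Assembly factors help build the complexes without being part of them. Of the 17 covered by the rule, 9 were higher and 8 lower, with a median of 0.03 (-0.03 with the GC trend removed), against 28 higher and 48 lower of the 76 subunits, with a median of -0.31. NDUFAF8, needed for complex I assembly, was the single one past 2-fold, at 38.5 and 15.4 FPKM (-1.27), and came inside it with the GC trend removed (-0.84). NDUFAF4 was at 9.78 and 19.1 FPKM (0.90), and passed 2-fold when the libraries were scaled to their upper quartile. For complex IV, COX19, which acts in copper delivery, was at 3.01 and 5.44 FPKM (0.69) and COX10, which makes haem O on the way to haem A, at 4.73 and 7.93 FPKM (0.64). COX17, the copper chaperone that loads the complex, was at 13.4 and 7.47 FPKM (-0.77). Exons of COX19 and of COX17 overlap those of a coding neighbour on the same strand. ATP5S, a coupling factor, and COX18, which helps insert the MT-CO2 protein into the membrane, were the 2 genes under 1 FPKM in a library.

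At a smaller fold, 58 of the 95 nuclear genes stayed within 1.5-fold, 9 were higher by more than that and 28 lower. Over all genes, 20.8% were higher and 21.6% lower by that amount. The nuclear genes thus had a smaller share higher and a larger share lower than all genes, which was not tested. None of the 10 nuclear genes past 2-fold shares exon bases with another coding gene on its strand, whereas 20 of the 95 do.

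The GC content of transcripts moved with the difference in the whole table (r = -0.47 and rho = -0.49 across 10907 genes of the same 2 libraries), and more so in the nuclear respiratory chain genes (r = -0.57 and rho = -0.56, n = 95). Among the 32 of these genes with the lowest GC, between 36.0% and 44.8%, 22 were higher and the median was 0.14. Among the 31 in the middle, 10 were higher, with a median of -0.29. Among the 32 with the highest GC, from 51.7% to 67.6%, 6 were higher and the median was -0.76. The 4 nuclear genes higher by 2-fold were all in the low GC set, and the 6 lower by 2-fold all in the high GC set. COX7A2L, at 44.2%, had the highest difference of the 95 and ATP5D, at 67.6%, the lowest. NDUFA5, with the lowest GC at 36.0%, differed by 0.65. The split into these sets was made with the values known.

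Mitochondrial transcripts lie on the low side of this range, from 39.6% to 47.7% GC. The 3749 nuclear genes of the table in the same range had a median difference of 0.27, with 10.7% higher by 2-fold, so the mitochondrial median of 1.65 lay well above that of nuclear genes of like composition. With the lowess trend on GC removed, the mitochondrial median was 1.42, all 13 stayed above 0 and 11 stayed past 2-fold. Within the 13, GC content and the difference had r = -0.37 and rho = -0.31. For nuclear genes the same step left COX7A2L (2.22) and NDUFB4 (1.37) past 2-fold, and brought NDUFA4 to 0.74, COX7C to 0.80, NDUFB7 to -0.69, NDUFV1 to -0.87, ATP5D to -0.85 and ATP5G1 to -0.95. Of the genes within 2-fold it brought NDUFAF4 to 0.32, UQCRB to 0.27 and ATP5L to 0.21. After it 2 genes were lower by 2-fold, UQCRFS1 at 45.1% GC (-1.18) and ATP5F1, subunit b of the outer stalk, at 44.8% GC (-1.15, against -0.96 before).

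**Figure D3:**
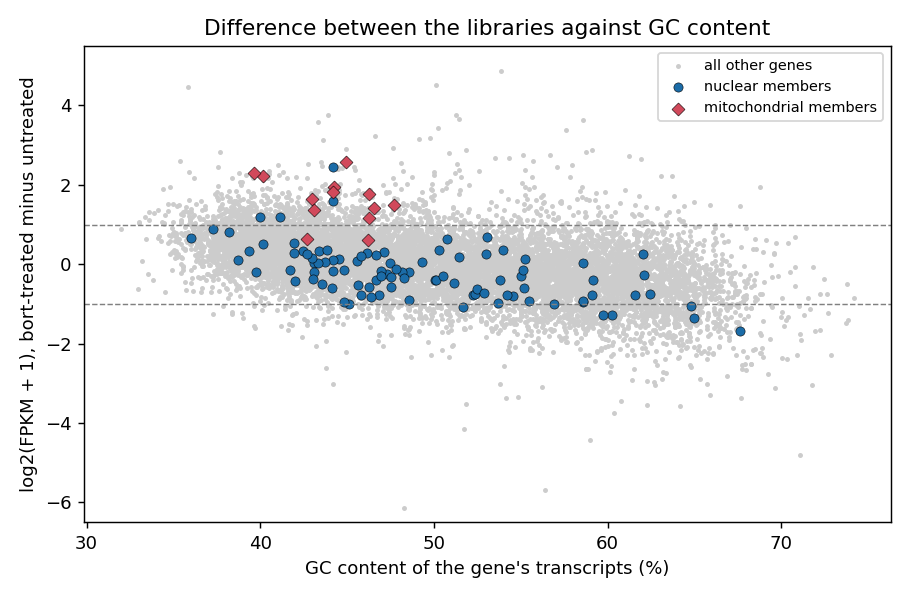
Difference in log2(FPKM + 1), bort-treated minus untreated, against the GC content of each gene's transcripts in percent. Grey points are all other genes, blue circles the 95 nuclear and red diamonds the 13 mitochondrial respiratory chain genes, and dashed lines mark 2-fold. The nuclear genes follow the downward slope of the grey points, and the mitochondrial genes sit above most grey points of the same GC content.

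Promoters of nuclear respiratory chain genes are known for sites of NRF1, of ETS-type factors such as GABP, and of YY1. RefSeq windows from 250 bases before to 50 after the start site, on GRCh38.p14, were matched to 78 of the 95 nuclear genes and searched on both strands. The NRF1 motif GCGCANGCGC was in 18 of them (23.1%), against 6.98% of all 27305 gene symbols. A symbol was counted when any of its windows held the motif. The 27305 symbols were not matched to the 78 genes by gene type or GC content. The ETS motif CCGGAAG was in 26 (33.3% against 12.2%) and the YY1 motif AAGATGGCG in 11 (14.1% against 2.14%). No motif contains another, but the ETS motif can share its final AAG with the start of the YY1 motif, and a gene can hold more than 1. These shares describe letters in a window, not bound sites.

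A few NRF1 matches are printed because genes with the same motif differed in opposite directions. Each window is 30 bases on the strand of the gene, with the first match in capitals.
NDUFB4, chr3:120596167-120596196, plus strand: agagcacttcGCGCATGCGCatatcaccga
ATP5C1, chr10:7788145-7788174, plus strand: gggagcttcgGCGCATGCGCgctgaggcct
SDHD, chr11:112086753-112086782, plus strand: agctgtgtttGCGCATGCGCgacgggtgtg
COX17, chr3:119677503-119677532, minus strand: gggcctccttGCGCATGCGCtgaagggggc
UQCRFS1, chr19:29213163-29213192, minus strand: gcgcctcctcGCGCCTGCGCcgtggttgga
The first 4 hold the same letters, and their differences were 1.60 for NDUFB4, 0.25 for ATP5C1 (-0.04 with the GC trend removed), -0.26 for SDHD and -0.77 for COX17. UQCRFS1 differed by -0.998. Of the 18 genes with the motif, 5 were higher and 13 lower, with a median of -0.46, and of the 60 without it 27 were higher and 33 lower, with a median of -0.16. Genes with the ETS motif had a median of -0.32 (8 higher, 18 lower), against -0.17 without it (24 and 28). Those with the YY1 motif had a median of -0.59, against -0.20 without it. By direction they were not lower more often, with 5 higher and 6 lower, against 27 and 40 without the motif. Ranges overlapped in each case and no test was made.

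Genes that act on the respiratory chain from outside the rule were taken from lists written with earlier results of these data known. The nuclear regulators of respiratory genes were lower in 6 of 7 cases, with a median of -0.56. ESRRA, a nuclear receptor that drives many respiratory genes, was at 26.2 and 5.32 FPKM (-2.11), and YY1 at 23.3 and 10.5 FPKM (-1.08). NRF1 was at 7.45 and 5.39 FPKM (-0.40), and GABPA, the DNA-binding part of GABP, at 5.58 and 5.77 FPKM (0.04, or -0.57 with the GC trend removed). PPARGC1A, the coactivator of these factors, was not in the table.

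Genes for the machinery that copies and transcribes mitochondrial DNA were mixed and mostly lower, and their part in the mitochondrial messages was not tested. Of 13 such genes, 4 were higher and 9 lower, with a median of -0.35. POLRMT, the mitochondrial RNA polymerase, was at 41.7 and 19.8 FPKM (-1.04, or -0.36 with the GC trend removed), and TWNK, the helicase of mitochondrial DNA replication, at 21.8 and 9.77 FPKM (-1.08, or -0.89 with the trend removed). TFAM, which packs mitochondrial DNA and opens its promoters, was at 19.4 and 21.8 FPKM (0.16, or -0.30 with the GC trend removed). TEFM, the elongation factor of the polymerase, was the highest of the 13 at 4.44 and 6.73 FPKM (0.51, or 0.14).

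Genes of mitochondrial RNA processing and stability were mixed, with 6 of 17 higher and a median of -0.11, or 4 of 17 and -0.45 with the GC trend removed. LRPPRC and SLIRP form a complex that stabilises mitochondrial messages and supports their tails. LRPPRC was at 38.9 and 33.7 FPKM (-0.20) and SLIRP at 33.2 and 15.7 FPKM (-1.04). TBRG4, a FASTK family protein that acts on mitochondrial RNA, was the lowest at 30.3 and 9.48 FPKM (-1.58). REXO2, which degrades short RNA pieces in mitochondria, was at 17.6 and 30.4 FPKM (0.76).

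Assembly genes outside the rule, unlike the even split of the 17 within it, were lower in 28 of 37 cases, with a median of -0.31. Lower by 2-fold were 5 (13.5%), against 10.2% of all genes. Scaled to the upper quartile, 25 of the 37 were lower and 12 higher, and 4 were lower by 2-fold. UQCC3, which acts in complex III assembly, was at 30.4 and 6.34 FPKM (-2.10), SDHAF1, which helps load iron-sulphur clusters into SDHB, at 29.5 and 7.73 FPKM (-1.80) and DMAC1, a complex I membrane arm factor, at 18.8 and 5.26 FPKM (-1.66). TMEM126A, which acts on the same arm, was at 18.6 and 37.7 FPKM (0.98). Of the 5 electron carrier and subunit genes that the symbols miss, 3 were lower. ATPIF1, the inhibitor of ATP synthase, was at 88.9 and 38.0 FPKM (-1.21), CYC1, cytochrome c1 of complex III, at 87.7 and 48.8 FPKM (-0.83, or -0.29 with the GC trend removed), and CYCS, cytochrome c, at 66.8 and 55.1 FPKM (-0.27, or -0.57). USMG5, a small ATP synthase subunit, was at 91.4 and 133.2 FPKM (0.54).

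For comparison, the nuclear respiratory chain genes had a median below 0, as did other nuclear genes for mitochondrial proteins. The 78 mitochondrial ribosomal protein genes had a median of -0.25, with 28 higher and 50 lower, from MRPL12 (-1.94) to MRPS36 (1.90). The 25 genes with TIMM or TOMM symbols, mostly of protein import, had a median of -0.42, with 5 higher and 20 lower. They ran from TIMM8B (-1.58) to TOMM6 (1.44). TIMMDC1, a complex I assembly gene, was taken by its symbol, and its own difference was -0.42. Lower by 2-fold were 12 (15.4%) of the mitochondrial ribosomal protein genes and 5 (20%) of the TIMM and TOMM genes. The share was 6.32% of the nuclear respiratory chain genes and 10.2% of all genes. With the GC trend removed, the counts were 8 of 78 and 3 of 25, against 2 of the 95 nuclear respiratory chain genes. The share over all genes after this step is not given here, so these counts have no background beside them. The 82 cytosolic ribosomal protein genes, by contrast, were higher in 62 cases, with a median of 0.30, and 7 (8.54%) were higher by 2-fold, a share close to that over all genes. None of these lists had a median near that of the mitochondrially encoded genes, and none was set against another by a test.

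**Figure D4:**
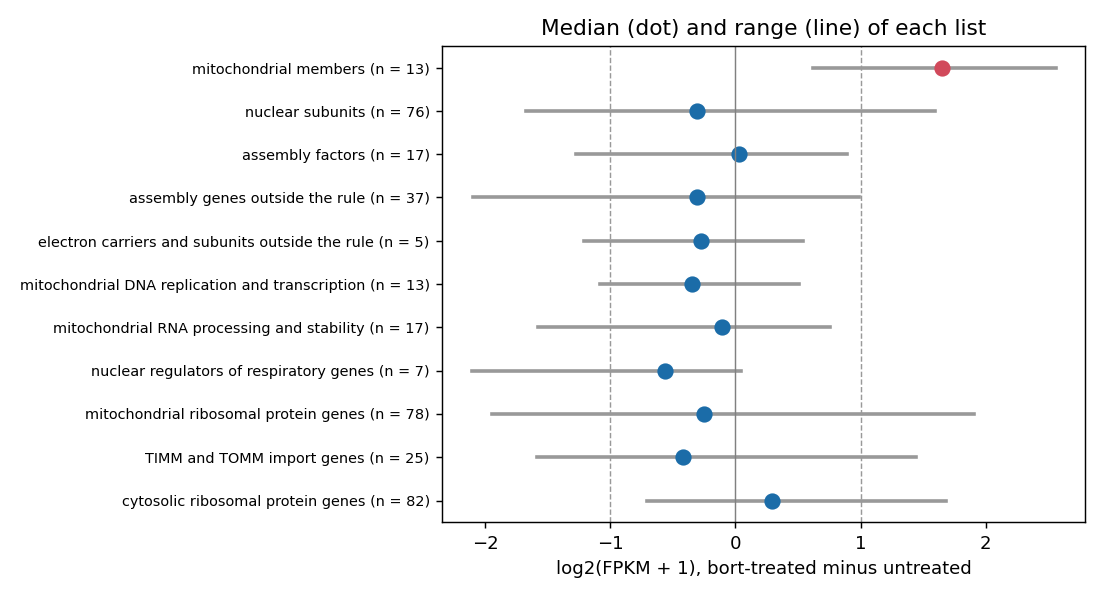
Median (dot) and range (line) of the difference in log2(FPKM + 1), bort-treated minus untreated, for the respiratory chain genes and related lists, with the number of genes beside each name and dashed lines at 2-fold. The 13 mitochondrial genes have the highest median, 1.65, and the 7 nuclear regulators the lowest, -0.56.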

How the data were processed

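The 2 libraries analysed were those of bort-treated and untreated THP1 cells. Per the study's methods, the authors trimmed reads, mapped them with HISAT2 2.0.4 and assembled transcripts with StringTie 1.2.3, and the tool behind the abundances is not named; the table as deposited holds FPKM for each gene. The submitters' processing notes name GRCh37. No gene in the table was below 0.501 FPKM in both libraries. Depth is unknown: too few single-transcript genes lay below 0.2 FPKM (20 with bort, 15 without) to work out what a single read was worth, so intervals and detection limits are left out.

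From these FPKM, differences of log2(FPKM + 1) were computed over the whole table, with 2-fold as the call and no test, since each condition had 1 library. Genes named are all mitochondrial genes, every respiratory chain gene past 2-fold as deposited, the highest and lowest nuclear subunit of each complex and assembly factor, SDHA to SDHD, paralogues, and the ends of each related list; others named were chosen with their values known, as were the sets by GC content and the promoters shown. The genes and lists were chosen with earlier results of these data known. GC content came from GENCODE 29 transcripts, which gave a value for 99.3% of genes, and its trend was taken by lowess with a span of 0.3. Promoters came from RefSeq (GRCh38.p14) and no coordinates were moved between builds. Alternatives were other pseudocounts, a filter at 1 FPKM, other scalings, GC removal and other folds. The steps were tested on simulated data. Tools were Python 3.11.15 with statsmodels 0.14.6 and scipy 1.17.1 for statistics, matplotlib 3.10.9 for figures, and pandas 2.3.3 and numpy 2.4.6.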

Additional observations from a re-analysis of the deposited data

How the results depend on the processing

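All 13 mitochondrial genes stayed higher, and 11 of them past 2-fold, under each of the 9 alternatives of pseudocount, filter, scaling and GC content. Their median ran from 1.42 to 1.76 and that of the nuclear genes from -0.29 to -0.11. The value of -0.11 came with scaling to the upper quartile or to the total without the 20 most abundant genes. Under these scalings the median over all genes was 0.095 and 0.097. With means in place of medians and subunits alone also tried, the gap between the genomes ran from 1.68 to 1.96. The nuclear medians of complexes I, II, III and V kept their sign, and that of complex IV became -0.062 after removal of the GC trend. Between 13 and 16 respiratory chain genes were higher by 2-fold, 22 by 1.5-fold and 4 by 4-fold. The number lower by 2-fold was 4 to 9 under other pseudocounts, filters and scalings and 2 after GC removal; it was 28 at 1.5-fold and 0 at 4-fold, as fewer genes pass a larger fold. Of 351 values for the 39 respiratory chain genes that the naming rule takes, 329 kept their sign and side of 2-fold, 13 moved inside it, 7 passed it, and 2 (SDHC and COX7A2) changed sign within it. GC removal accounted for 8 of the 13 and for these 2 changes of sign, and it also turned NDUFV2, ATP5C1, GABPA and TFAM, which are not among the 39.

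No paired analysis was possible because there was a single library for either condition, and none was left out for the same reason. Scalings and tests for read counts were not run, as the table holds FPKM. With unknown depth, differences of genes near 1 FPKM, such as COX18, have no stated precision, and no difference here has been set against the spread between cultures.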
